A study of Mus musculus with 18 samples.

Results

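The genes described here build and crosslink the fibrous extracellular matrix. They are 44 genes chosen by name, with earlier results of these data known. They comprise interstitial collagens, elastic fibre and matricellular proteins, and the enzymes and chaperones that modify, process or crosslink them. All probes that the platform annotation gives to these genes were read in the deposited bead array intensities. Of the 44 genes, 38 had a probe and 33 had a probe past the detection filter, of 13106 genes in all that passed it.

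Total RNA came from fibroblasts of mouse embryos of embryonic day 10.0 (background BL6/129/Sv) that had been immortalised by the 3T3 protocol. The 2 genotypes were wildtype and jnk1-/-jnk2-/-, which lacks the stress kinases JNK1 and JNK2 and is called KO here. Both grew on culture inserts in FAD medium, which holds insulin, hydrocortisone, cholera toxin and human EGF, alone (day 0) or with differentiating primary human epidermal keratinocytes below them, with fresh inserts set in at 2-day steps to give RNA of days 2, 4 and 6. The 18 arrays comprise, for each genotype, 1 array of day 0, 2 of day 2, 2 of day 4 and 4 of day 6, holding RNA of 1 insert or of 2 or 3 pooled inserts. No separate lines or embryos are named within a genotype, so the spread behind the p-values is that between culture inserts, and a difference between the genotypes cannot be told apart from a difference between the immortalised populations.

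Fibrillar collagens are triple helices of alpha chains. Type I collagen, the main fibre of skin and bone, usually joins COL1A1 and COL1A2 chains, and type V collagen seeds its fibrils. Chains are hydroxylated and folded in the endoplasmic reticulum, trimmed outside the cell, and crosslinked by lysyl oxidases. Elastic fibres hold an elastin core, crosslinked by the same enzymes, on a scaffold of fibrillin microfibrils, with fibulins, emilins and microfibril-associated proteins at their surface. In skin, dermal fibroblasts make most of these proteins.

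Promoter windows were looked up because JNK phosphorylates c-Jun, a subunit of the AP-1 transcription factor. RefSeq windows (build GRCm38.p6), each from 250 bases before to 50 after an annotated start, were given for 28 of the 44 genes, and 9 of these had more than 1 window. Shown 5′ to 3′ on the gene's strand are 3 genes that were lower on all 9 KO arrays (Col1a2 at chr6:4505368-4505667, plus strand; Fbln2 at chr6:91212514-91212813, plus strand; Vcan at chr13:89742463-89742762, minus strand) and Col6a1 (chr10:76725995-76726294, minus strand), which did not pass the test between the genotypes and whose window holds the AP-1 letters, in capitals.
Col1a2: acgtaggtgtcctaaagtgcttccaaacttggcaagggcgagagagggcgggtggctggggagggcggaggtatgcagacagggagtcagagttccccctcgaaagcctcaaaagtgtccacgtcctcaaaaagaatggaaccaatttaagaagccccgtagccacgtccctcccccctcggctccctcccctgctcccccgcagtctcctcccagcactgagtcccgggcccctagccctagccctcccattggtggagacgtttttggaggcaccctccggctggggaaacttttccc
Fbln2: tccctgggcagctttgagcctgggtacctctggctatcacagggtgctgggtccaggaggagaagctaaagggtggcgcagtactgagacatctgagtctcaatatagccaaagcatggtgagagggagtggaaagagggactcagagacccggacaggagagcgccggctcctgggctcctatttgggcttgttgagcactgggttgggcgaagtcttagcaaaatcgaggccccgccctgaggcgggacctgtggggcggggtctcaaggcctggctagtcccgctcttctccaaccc
Vcan: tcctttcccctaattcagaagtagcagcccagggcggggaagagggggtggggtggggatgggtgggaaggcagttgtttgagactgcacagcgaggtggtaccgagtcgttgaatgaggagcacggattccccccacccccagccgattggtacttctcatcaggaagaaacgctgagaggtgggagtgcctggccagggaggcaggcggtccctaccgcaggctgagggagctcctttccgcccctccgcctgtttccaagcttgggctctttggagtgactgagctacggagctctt
Col6a1: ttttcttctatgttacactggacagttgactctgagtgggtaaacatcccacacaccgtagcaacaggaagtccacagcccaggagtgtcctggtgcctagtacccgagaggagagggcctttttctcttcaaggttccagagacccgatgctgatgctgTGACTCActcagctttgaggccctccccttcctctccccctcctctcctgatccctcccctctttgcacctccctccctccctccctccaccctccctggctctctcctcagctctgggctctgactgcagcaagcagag
The motifs were searched on both strands. The 28 genes had 38 windows in all. The AP-1 motif TGANTCA was found in 2 of these, of Col6a1, beginning at position -90 relative to the start, and of Efemp1. It was in 7.81% of all 32851 windows of this length. The cyclic AMP response element TGACGTCA, whose letters do not contain the AP-1 motif, was in no window of the 28 genes and in 1.79% of all. The TATA box letters TATAAA were in 5 of the 38 windows, of Col3a1, Plod1, Postn and Tnc, and in 13.6% of all. A match is a description of the letters and does not show a binding site. The 3 lower genes shown are a choice from 8 such genes. Whether the letters go with the genotype difference was not tested.

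On 12 arrays the mean intensity per probe was 392 to 482 and 37.3% to 40.8% of probes were detected. The remaining 6, namely replicates 2, 3 and 4 of each genotype at day 6, had 581 to 653 and 44.9% to 45.8%, and their detection p-values were of another kind, so they are called the second processing set. Day 6 replicate 1 of both genotypes belongs to the first set. Arrays of 1 group correlated at 0.972 to 0.993. The targeted Mapk9 (JNK2) differed by -5.21 ± 0.12 on the log2 scale over days 2 to 6 (limma adjusted p = 3.77e-17), while the probe of Mapk8 (JNK1) differed by 0.11 (adjusted p = 0.663), and whether it lies in the deleted part is not given in the sources used here.

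KO differed from wildtype in most of the matrix genes measured, more often downwards than upwards. Emilin2, Fbln2, Vcan, Lox, Col1a2 and Fbln1 were lower in KO by over 3 on the log2 scale, and Mfap4 and Mfap2 were at least 18.9-fold and 6.95-fold higher. Over the mean of days 2, 4 and 6, 17 of the 33 tested genes were lower in KO and 7 higher, against 18% of all 18128 features tested lower and 20% higher (limma, Benjamini-Hochberg adjusted p under 0.05). The median difference was -0.48 over the 33 genes and 0.03 over all features. As the genes were chosen with earlier results of these data known, these shares describe them and do not test them as a group. Col1a2, Loxl3 and Mfap4 reached the 2 detected arrays that the filter needs in only 1 genotype. Among the 30 genes that reached them in both, 15 were lower and 6 higher, against 20.4% and 22.9% of 14199 such features. At day 6, 17 genes were lower (13.7% of all features) and 6 higher (14.8%). At day 4 these counts were 13 (9.3%) and 7 (9.83%), and at day 2 they were 12 (10%) and 5 (9.99%). On each of the 3 days 12 genes were lower (7.4% of all features) and 5 higher (7.23%). All 9 KO arrays, day 0 included, lay below all 9 wildtype arrays for 8 genes (6.51% of all features): Col1a2, Fbln1, Fbln2, Emilin2, Lox, Loxl1, Bmp1 and Vcan. They lay above for Mfap2 and Mfap4 (6.16% of all features).

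**Figure D1:**
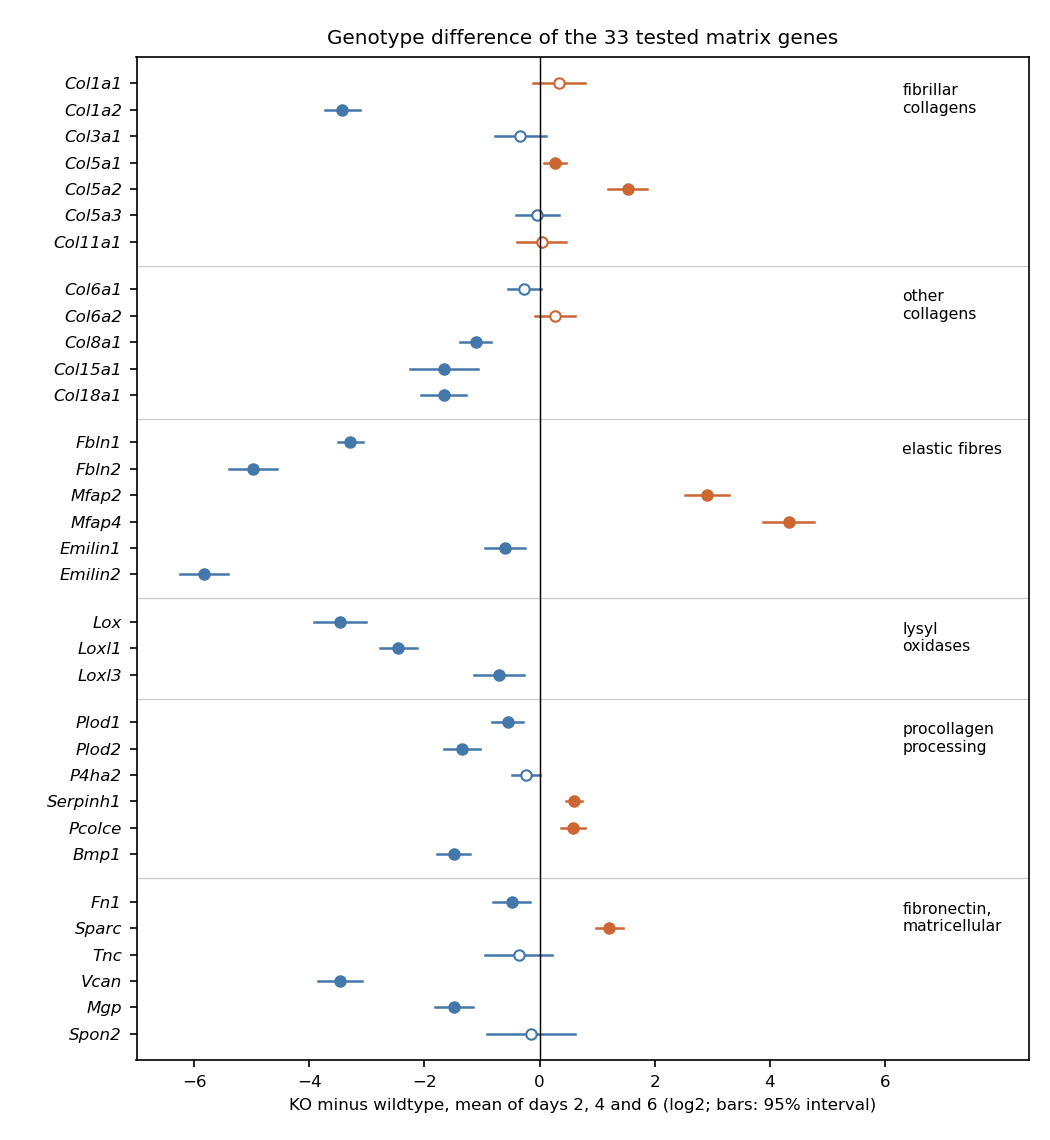
Genotype difference of the 33 tested genes, grouped by role, as KO minus wildtype over the mean of days 2, 4 and 6 on the log2 scale. Points are estimates and bars their 95% intervals, filled points passed an adjusted p of 0.05, blue lies below 0 and orange above. The lysyl oxidases lie left of 0, Col1a2 lies at -3.43 while Col1a1 lies at 0.34, and the elastic fibre genes span -5.82 to 4.33.

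In cultures of this kind, fewer cells that express a gene and less RNA per cell cannot be told apart. With each array scaled to its median instead of by quantiles, 23 of the 24 genes called over the mean of days passed. Of these, 17 were lower and 6 higher, against 15.8% of all features lower and 9.56% higher. Among the calls over all features, the share of higher ones went from 52.7% to 37.7%. Of the 24 calls, 21 held under each of 25 alternatives, and Col5a1, Loxl3 and Fn1 did not, as given with each.

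Among the fibrillar collagens, Col1a2 was lower in KO, Col5a2 and Col5a1 were higher, and the other 4 of 7 did not pass the test. The median difference of the 7 genes was 0.04. Col1a2, the second chain of type I collagen, read 7.36 (day 0), 7.83 and 8.25 (day 2), 7.87 and 7.90 (day 4) and 8.37, 9.03, 8.81 and 8.43 (day 6) on the wildtype arrays (log2 normalised intensity, as for all values per array below). On the KO arrays it read 4.56 (day 0), 4.32 and 4.32 (day 2), 5.56 and 5.20 (day 4) and 4.66, 4.57, 4.34 and 4.83 (day 6). It was detected on all 9 wildtype arrays and on 1 KO array, at day 4. At day 6, where no KO array detected it, Col1a2 was at least 16.1-fold lower in KO (adjusted p = 4.73e-12), and over the mean of days the difference was -3.43 ± 0.14 (SE; 8 KO and 8 wildtype arrays; at least 9.93-fold lower; adjusted p = 2.78e-13).

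Its partner chain Col1a1 did not pass the test. Col1a1 read 9.70 (day 0), 10.56 and 10.81 (day 2), 10.85 and 11.10 (day 4) and 11.09, 12.58, 12.58 and 12.51 (day 6) in wildtype and 10.19 (day 0), 11.22 and 11.25 (day 2), 12.04 and 11.08 (day 4) and 11.66, 12.74, 11.76 and 12.13 (day 6) in KO, so the groups overlapped at days 4 and 6. The difference over the mean of days was 0.34 ± 0.21 (adjusted p = 0.248; 95% interval -0.11 to 0.79), and on the 12 arrays of the first set alone Col1a1 passed as higher in KO, by 0.57 (adjusted p = 0.0145). The interval of Col1a1 leaves out a fall of the size measured for Col1a2. At day 6 wildtype replicate 1, the one first-set array of its group, stood at 11.09 against 12.51 to 12.58 for the other 3.

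Col5a2, a chain of the type V collagen that starts type I fibrils, was higher in KO. Wildtype arrays read 4.59 (day 0), 5.97 and 5.95 (day 2), 5.97 and 6.09 (day 4) and 5.87, 6.04, 6.54 and 6.40 (day 6). The KO arrays read 6.52 (day 0), 7.61 and 7.29 (day 2), 7.44 and 7.37 (day 4) and 7.41, 8.51, 7.92 and 7.88 (day 6). From day 2 on all of them lay above all wildtype arrays. The difference was 1.53 ± 0.16, a 2.88-fold higher signal (adjusted p = 2.02e-07). A second, dimmer Col5a2 probe was higher by 1.82 (adjusted p = 5.33e-09 over all probes past the filter).

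Its partner Col5a1 was higher in KO by a small margin, and by single day was called at day 4 only. Wildtype read 11.15 (day 0), 11.65 and 11.65 (day 2), 11.28 and 11.53 (day 4) and 11.90, 11.96, 11.75 and 11.99 (day 6). KO read 11.50 (day 0), 11.85 and 11.65 (day 2), 12.22 and 11.73 (day 4) and 12.10, 12.33, 11.86 and 11.92 (day 6), and the ranges overlapped at days 2 and 6. The difference was 0.27 ± 0.09 (adjusted p = 0.0234), and the call was lost under median scaling, without the intensity trend, and when wildtype day 2 replicate 1 or 2, KO day 2 replicate 1, wildtype day 4 replicate 1 or KO day 4 replicate 1 was left out (differences from 0.12 to 0.36 over all alternatives, highest adjusted p = 0.685).

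Col3a1, the type III chain of skin and vessels, ranged from 6.87 to 9.87 in wildtype and 6.67 to 10.21 in KO, with a difference of -0.33 ± 0.21 (adjusted p = 0.251). On the first set alone Col3a1 passed as lower, with -0.54 (adjusted p = 0.00796). Col5a3 and Col11a1 lay near background and gave -0.04 ± 0.18 and 0.04 ± 0.20 (adjusted p = 0.898 and 0.906). Col11a1, a minor chain of cartilage-type fibrils, was detected on the 6 arrays of the second set and on none of the other 12.

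**Figure D2:**
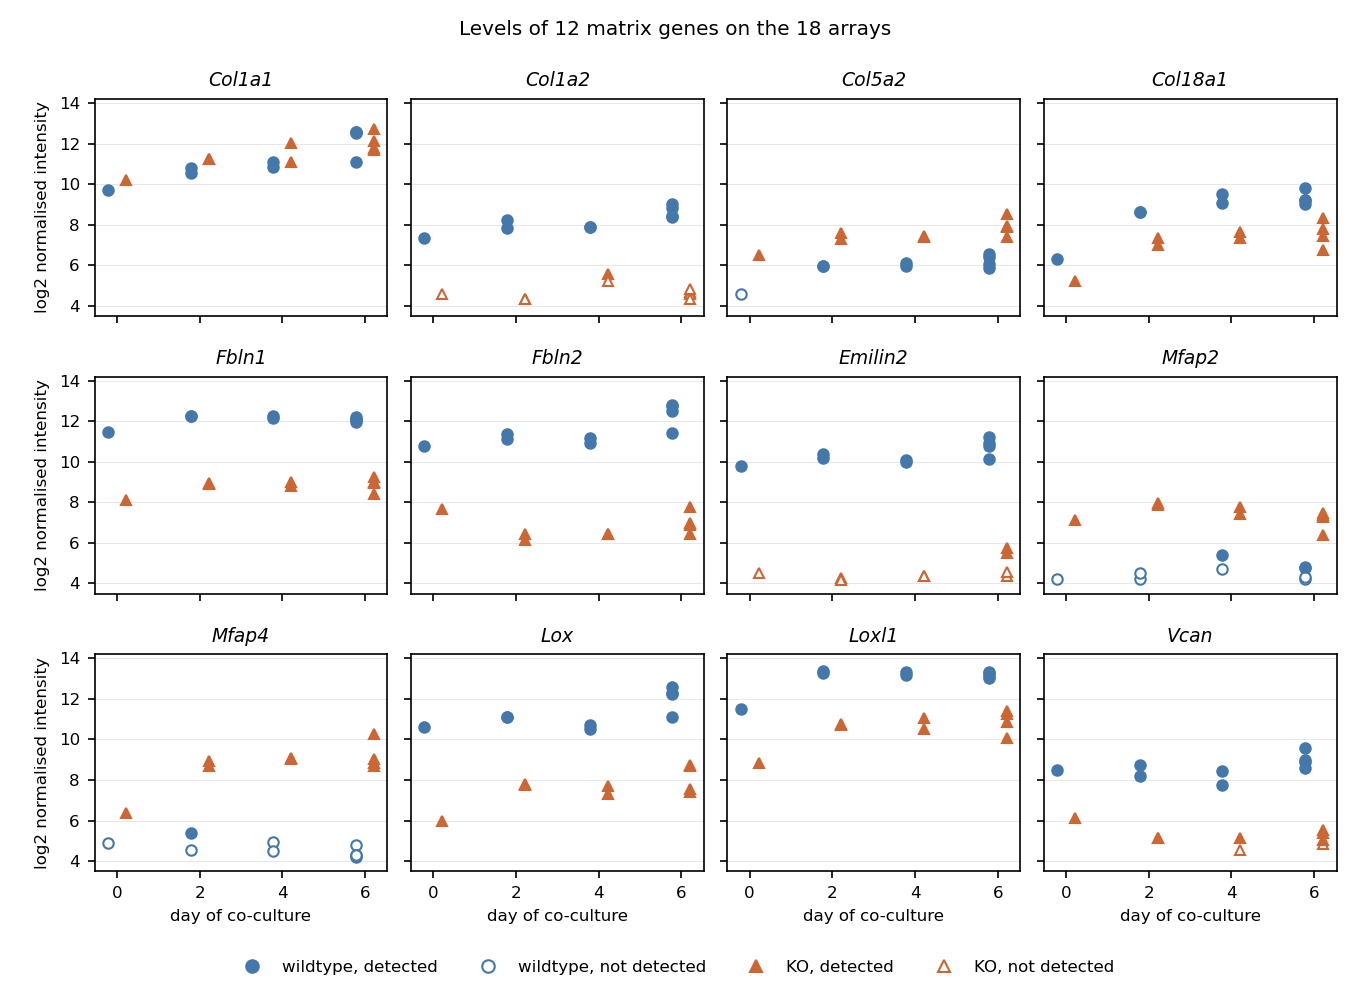
Log2 normalised intensity of 12 genes on each of the 18 arrays by day, circles for wildtype and triangles for KO, open where the gene was not detected. Col1a2 and Emilin2 in KO, and Mfap4 and Mfap2 in wildtype, lie near the floor of about 4 to 5. So does Vcan in KO from day 2 on, while Col1a1 overlaps between the genotypes.

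Outside the fibrillar chains, Col18a1, Col15a1 and Col8a1 were lower in KO, and the type VI chains Col6a1 and Col6a2 did not pass the test. None of the 5 tested genes was higher, and their median difference was -1.11. Col6a3, a further type VI chain, and Col12a1 had no probe and were not analysed here. Col18a1, a basement membrane multiplexin whose C-terminal fragment is endostatin, read 6.31 (day 0), 8.61 and 8.63 (day 2), 9.05 and 9.49 (day 4) and 9.21, 9.81, 9.01 and 9.21 (day 6) in wildtype. Col18a1 read 5.22 (day 0), 7.33 and 6.98 (day 2), 7.64 and 7.32 (day 4) and 7.44, 8.31, 7.77 and 6.75 (day 6) in KO. From day 2 on, no KO array reached the wildtype range, and the difference was -1.67 ± 0.19 (3.17-fold lower; adjusted p = 5.04e-07).

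Col15a1, its closest relative, read 4.20 (day 0), 5.51 and 5.95 (day 2), 6.81 and 7.28 (day 4) and 6.34, 7.27, 8.06 and 6.89 (day 6) in wildtype, where it was undetected at day 0. Col15a1 read 4.89 (day 0), 4.70 and 4.65 (day 2), 5.33 and 4.33 (day 4) and 4.85, 6.25, 6.05 and 4.55 (day 6) in KO, detected on 4 of 9 arrays. The difference was -1.66 ± 0.28, at least 3.15-fold lower (adjusted p = 7.80e-05). KO stood below wildtype on each array within days 2, 4 and 6 but not at day 0, where neither array detected Col15a1.

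Col8a1, a short-chain network collagen of vessel walls and the cornea, read 7.47 (day 0), 8.84 and 8.73 (day 2), 8.04 and 8.21 (day 4) and 8.35, 8.29, 7.86 and 8.62 (day 6) in wildtype. Col8a1 read 6.22 (day 0), 6.87 and 7.09 (day 2), 7.44 and 7.24 (day 4) and 7.53, 7.83, 7.47 and 7.32 (day 6) in KO. The KO arrays lay below every wildtype array from day 2 on, with a difference of -1.11 ± 0.13 (2.16-fold; adjusted p = 5.93e-07). The gap was -1.80 at day 2 and -0.74 at day 6, a change of 1.06 ± 0.29 with an unadjusted p of 0.00195 and an adjusted p of 0.991.

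Type VI collagen forms beaded filaments around cells. Col6a1 differed by -0.26 ± 0.13 (adjusted p = 0.14), with 11.81 to 14.10 in wildtype and 12.39 to 14.05 in KO, and passed as lower when KO day 4 replicate 1 or KO day 6 replicate 2 was left out (lowest adjusted p = 0.0341). Col6a2 differed by 0.26 ± 0.17 on its brighter probe (adjusted p = 0.249), and passed as higher on the first set alone (0.37, adjusted p = 0.02) or with its probes averaged (0.87, adjusted p = 5.67e-06). A second Col6a2 probe, detected on all arrays, was higher in KO by 1.48 (adjusted p = 2.26e-09), with 8.17 to 9.16 in wildtype and 9.65 to 10.85 in KO, so the probes of Col6a2 gave different calls.

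The elastic fibre genes held the largest differences of both signs among the 33 genes. Of the 6 tested, Emilin2, Fbln2, Fbln1 and Emilin1 were lower in KO, Mfap4 and Mfap2 were higher, and the median was -1.95. Emilin2, a glycoprotein of elastic fibres, read 9.82 (day 0), 10.40 and 10.17 (day 2), 10.01 and 10.08 (day 4) and 10.16, 11.20, 10.93 and 10.80 (day 6) in wildtype. Emilin2 read 4.49 (day 0), 4.28 and 4.18 (day 2), 4.36 and 4.36 (day 4) and 4.35, 5.76, 5.51 and 4.55 (day 6) in KO, and only KO day 6 replicates 2 and 3 detected it. The highest KO array lay over 4 log2 units under the lowest wildtype array.

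At day 2, with no KO array detecting it, Emilin2 was at least 50.8-fold lower in KO, and at day 4 at least 40.6-fold (adjusted p = 6.38e-10 and 1.63e-09). At day 6 the difference was -5.73 ± 0.27 (adjusted p = 3.28e-12). A second Emilin2 probe gave -5.41 at day 6, and -4.91 over the mean of days against -5.82 for the first.

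Fbln2, a fibulin that binds elastin, fibrillin and fibronectin, read 10.79 (day 0), 11.38 and 11.13 (day 2), 10.94 and 11.17 (day 4) and 11.40, 12.75, 12.81 and 12.50 (day 6) in wildtype. Fbln2 read 7.65 (day 0), 6.42 and 6.13 (day 2), 6.46 and 6.46 (day 4) and 6.86, 7.79, 6.98 and 6.42 (day 6) in KO. Every KO array was below 8 and every wildtype array above 10, and the difference was -4.98 ± 0.20, or 31.5-fold (adjusted p = 1.45e-13). Both other kept Fbln2 probes were also lower, with -3.90 and -0.60, the dimmer of them detected on 3 arrays.

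Fbln1, a fibulin found with fibronectin and in elastic fibres, read 11.45 (day 0), 12.28 and 12.24 (day 2), 12.28 and 12.15 (day 4) and 12.13, 12.20, 11.98 and 12.08 (day 6) in wildtype. Fbln1 read 8.12 (day 0), 8.93 and 8.88 (day 2), 8.99 and 8.79 (day 4) and 9.01, 8.95, 9.27 and 8.43 (day 6) in KO. From day 2 on its levels spanned under 1 log2 unit in each genotype, and the difference was -3.29 ± 0.10, or 9.77-fold lower (adjusted p = 3.06e-15). All 5 kept Fbln1 probes were lower.

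Mfap4, an integrin-binding microfibril-associated protein of elastic tissues, went the other way. Wildtype arrays read 4.89 (day 0), 5.39 and 4.54 (day 2), 4.92 and 4.51 (day 4) and 4.79, 4.22, 4.31 and 4.29 (day 6), detected once, at day 2. The KO arrays read 6.37 (day 0), 8.93 and 8.69 (day 2), 9.07 and 9.02 (day 4) and 9.04, 10.26, 8.70 and 8.86 (day 6) and were all detected. At day 6, where no wildtype array detected it, Mfap4 was at least 24.4-fold higher in KO (adjusted p = 8.73e-11), and over the mean of days it was at least 18.9-fold higher, with a difference of 4.33 ± 0.21.

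Mfap2, a fibrillin-binding component of microfibrils, read 4.20 to 5.39 in wildtype, detected on 3 of 9 arrays, and 6.41 to 7.95 in KO, detected on all. The difference was 2.91 ± 0.18, at least 6.95-fold (adjusted p = 1.28e-10), and both other kept probes were higher as well. Emilin1, the widely expressed emilin, was lower by a smaller margin, with -0.60 ± 0.17 (adjusted p = 0.00714). Its ranges overlapped, at 9.25 to 10.49 in wildtype and 7.93 to 9.83 in KO. By single day Emilin1 was called at day 6 only, with -0.84, against -0.39 at day 4 and -0.58 at day 2. Elastin itself (Eln), Fbln5, Efemp1 and Mfap5 had probes that were not detected on any array, and Fbn1, Fbn2 and Efemp2 were not analysed here.

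Of the lysyl oxidases, Lox and Loxl1 were lower in KO. Loxl3 was called lower too, but it passed the filter through wildtype arrays alone. Lox, the founding enzyme of the family, which oxidises lysines of collagen and elastin to start crosslinks, read 10.62 (day 0), 11.09 and 11.12 (day 2), 10.52 and 10.72 (day 4) and 11.13, 12.28, 12.58 and 12.24 (day 6) in wildtype. Lox read 5.98 (day 0), 7.77 and 7.81 (day 2), 7.70 and 7.33 (day 4) and 7.43, 8.69, 8.72 and 7.56 (day 6) in KO. Every KO array lay below every wildtype array, and the difference was -3.46 ± 0.22, or 11-fold (adjusted p = 1.03e-10).

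Loxl1, which in mice is needed for elastic fibre upkeep, read 11.52 (day 0), 13.27 and 13.39 (day 2), 13.18 and 13.33 (day 4) and 13.28, 13.03, 13.14 and 13.33 (day 6) in wildtype. Loxl1 read 8.82 (day 0), 10.73 and 10.75 (day 2), 11.03 and 10.52 (day 4) and 10.86, 11.42, 11.28 and 10.06 (day 6) in KO. The highest KO array, at 11.42, lay just under the lowest wildtype array, at 11.52 at day 0, and from day 2 on the gap was over 1 log2 unit. The difference was -2.45 ± 0.15, or 5.48-fold (adjusted p = 9.17e-11).

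Loxl3 was near background throughout and was called on no single day. Wildtype arrays read 4.62 (day 0), 4.82 and 5.66 (day 2), 5.42 and 4.43 (day 4) and 4.26, 5.54, 5.59 and 5.22 (day 6), with 5 of 9 detected. KO arrays read 4.61 (day 0), 4.60 and 4.25 (day 2), 4.24 and 4.42 (day 4) and 4.60, 4.44, 4.28 and 4.50 (day 6), with none detected. Its difference was -0.71 ± 0.21, at least 1.4-fold lower (adjusted p = 0.0115), and the call was lost on the first set alone and when wildtype day 2 replicate 2 or wildtype day 4 replicate 1 was left out (highest adjusted p = 0.302). Loxl2 was not analysed here.

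The genes for modifying and processing procollagen split by sign. Bmp1, Plod2 and Plod1 were lower in KO, Serpinh1 and Pcolce were higher, and P4ha2 did not pass over the mean of days. The median of the 6 was -0.39. Bmp1, the proteinase that cuts the C-propeptides off procollagens and activates lysyl oxidase, read 10.91 (day 0), 11.55 and 11.75 (day 2), 11.46 and 11.55 (day 4) and 11.89, 11.46, 11.31 and 11.42 (day 6) in wildtype. Bmp1 read 9.67 (day 0), 10.05 and 9.95 (day 2), 10.34 and 9.93 (day 4) and 10.27, 10.40, 10.23 and 9.35 (day 6) in KO. All KO arrays lay below all wildtype arrays, with a difference of -1.49 ± 0.14 (2.81-fold; adjusted p = 2.99e-08). Of the 4 kept Bmp1 probes the dimmest did not pass, with -0.22 (adjusted p = 0.436).

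Plod2, the lysyl hydroxylase of collagen telopeptides, read 8.30 (day 0), 9.61 and 9.69 (day 2), 9.86 and 9.91 (day 4) and 9.72, 10.99, 10.72 and 10.48 (day 6) in wildtype. Plod2 read 8.22 (day 0), 8.53 and 8.62 (day 2), 8.90 and 8.58 (day 4) and 8.65, 8.72, 8.30 and 8.95 (day 6) in KO. At day 0 the genotypes stood close, at 8.30 and 8.22, and from day 2 on no KO array reached the wildtype range. The difference over the mean of days was -1.35 ± 0.15 (adjusted p = 5.10e-07), and the dimmest of 3 kept Plod2 probes did not differ past the threshold (0.12, adjusted p = 0.737). Plod1, which hydroxylates lysines of the helix, was lower by less, with -0.56 ± 0.13 (adjusted p = 0.00158). By single day it was called at day 6 only, with -0.97, against -0.54 at day 4 and -0.16 at day 2.

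Serpinh1 encodes HSP47, the collagen chaperone of the endoplasmic reticulum. Wildtype arrays read 13.34 (day 0), 13.77 and 13.80 (day 2), 13.64 and 13.86 (day 4) and 13.74, 13.86, 13.82 and 13.82 (day 6). The KO arrays read 13.76 (day 0), 14.39 and 14.35 (day 2), 14.53 and 14.27 (day 4) and 14.45, 14.49, 14.37 and 14.17 (day 6). From day 2 on each KO array was above each wildtype array, and the difference was 0.60 ± 0.07, or 1.51-fold (adjusted p = 5.10e-07).

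Pcolce, which enhances the cut that BMP1 makes, was higher in KO as well. Wildtype read 11.66 (day 0), 12.68 and 12.62 (day 2), 12.49 and 12.57 (day 4) and 12.51, 12.64, 12.85 and 12.86 (day 6). KO read 12.68 (day 0), 13.13 and 13.16 (day 2), 13.29 and 13.01 (day 4) and 13.15, 13.76, 13.43 and 13.04 (day 6), above every wildtype array from day 2 on. The difference was 0.58 ± 0.10 (adjusted p = 7.00e-05), so the proteinase gene and the gene of its enhancer had differences of opposite sign. P4ha2, a prolyl 4-hydroxylase subunit, differed by -0.23 ± 0.12 over the mean of days (adjusted p = 0.138) and was called lower at day 6 only (-0.55 ± 0.16; adjusted p = 0.0115), a call that was lost within either processing set (adjusted p = 0.133 and 0.0628) and under median scaling. It passed over the mean of days, at 0.0469, when KO day 6 replicate 2 was left out.

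Among fibronectin, matricellular and related genes, Vcan, Mgp and Fn1 were lower in KO, Sparc was higher, and Tnc and Spon2 did not pass. Their median was -0.42. Vcan, the large proteoglycan versican of provisional matrix, read 8.51 (day 0), 8.74 and 8.17 (day 2), 7.74 and 8.45 (day 4) and 8.61, 9.60, 8.98 and 8.87 (day 6) in wildtype. Vcan read 6.15 (day 0), 5.13 and 5.13 (day 2), 5.16 and 4.54 (day 4) and 4.84, 5.52, 5.40 and 5.03 (day 6) in KO. All KO arrays lay below all wildtype arrays, with a difference of -3.46 ± 0.18, or 11-fold (adjusted p = 6.58e-12). From day 2 on Vcan lay near background in KO, and it was detected on 7 of 9 KO arrays, so background limits the fold. All 4 kept Vcan probes were lower. The dimmer ones gave -2.36, -3.39 and -2.29 and were detected on 3, 5 and 0 KO arrays.

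Mgp, a matrix protein that inhibits calcification, read 11.72 (day 0), 14.55 and 14.48 (day 2), 14.55 and 14.50 (day 4) and 14.45, 13.63, 14.14 and 14.21 (day 6) in wildtype. Mgp read 7.58 (day 0), 12.79 and 12.75 (day 2), 13.11 and 13.20 (day 4) and 13.06, 13.47, 12.49 and 12.07 (day 6) in KO. The KO arrays were below each wildtype array from day 2 on, with a difference of -1.48 ± 0.16 (2.8-fold; adjusted p = 2.54e-07). The KO array of day 0, at 7.58, was the lowest of all 18.

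Sparc, a collagen-binding matricellular protein, read 11.05 (day 0), 12.32 and 12.16 (day 2), 12.16 and 12.33 (day 4) and 12.41, 12.74, 13.07 and 13.12 (day 6) in wildtype. Sparc read 12.58 (day 0), 13.52 and 13.57 (day 2), 13.70 and 13.52 (day 4) and 13.53, 14.15, 13.90 and 13.67 (day 6) in KO. Within each day the KO arrays were higher, by 1.21 ± 0.11 over the mean (2.32-fold; adjusted p = 2.09e-08).

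Fn1, fibronectin, read 10.83 (day 0), 11.72 and 11.49 (day 2), 11.37 and 11.72 (day 4) and 12.49, 12.78, 11.85 and 12.53 (day 6) in wildtype. Fn1 read 11.78 (day 0), 11.32 and 11.44 (day 2), 11.10 and 10.71 (day 4) and 11.25, 12.19, 11.65 and 12.20 (day 6) in KO. The ranges overlapped at day 6, and at day 0 KO was higher. By single day Fn1 was called at day 6 only. The difference was -0.48 ± 0.15 (adjusted p = 0.0147), and it missed the threshold without wildtype day 2 replicate 1, wildtype day 4 replicate 2 or KO day 4 replicate 2 (highest adjusted p = 0.0636). Tnc (tenascin C) differed by -0.36 ± 0.28 and Spon2 by -0.15 ± 0.37 (adjusted p = 0.352 and 0.807), and Tnc passed as lower on the first set alone or without wildtype day 6 replicate 3 (adjusted p = 0.0053 and 0.032). Postn (periostin) had 3 probes and was detected on no array.

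Probes were compared because 20 of the 33 genes had more than 1 probe past the filter. For 16 of them all kept probes had the same call over the mean of days. For Bmp1, Col6a2, Fn1 and Plod2 they did not. For no gene did 2 called probes have opposite signs. Levels of different genes are not set against each other here, since probes differ in brightness.

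Before co-culture the genotypes had 1 array each, so day 0 gives values without a test. Of the 24 genes called over days 2 to 6, 22 had the same sign at day 0, as had 86.1% of all called features. All 9 genes with a difference over 2 on the log2 scale had it, against 95.7% of all such features. Emilin2 stood at 4.49 in KO and 9.82 in wildtype, Lox at 5.98 and 10.62, and Mfap2 at 7.14 and 4.22. The 22 were counted by sign alone. They include Loxl3, with -0.0075 and undetected on both day 0 arrays, and Plod2, with -0.08. The exceptions in sign were Col15a1, which was undetected on both day 0 arrays, and Fn1.

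**Figure D3:**
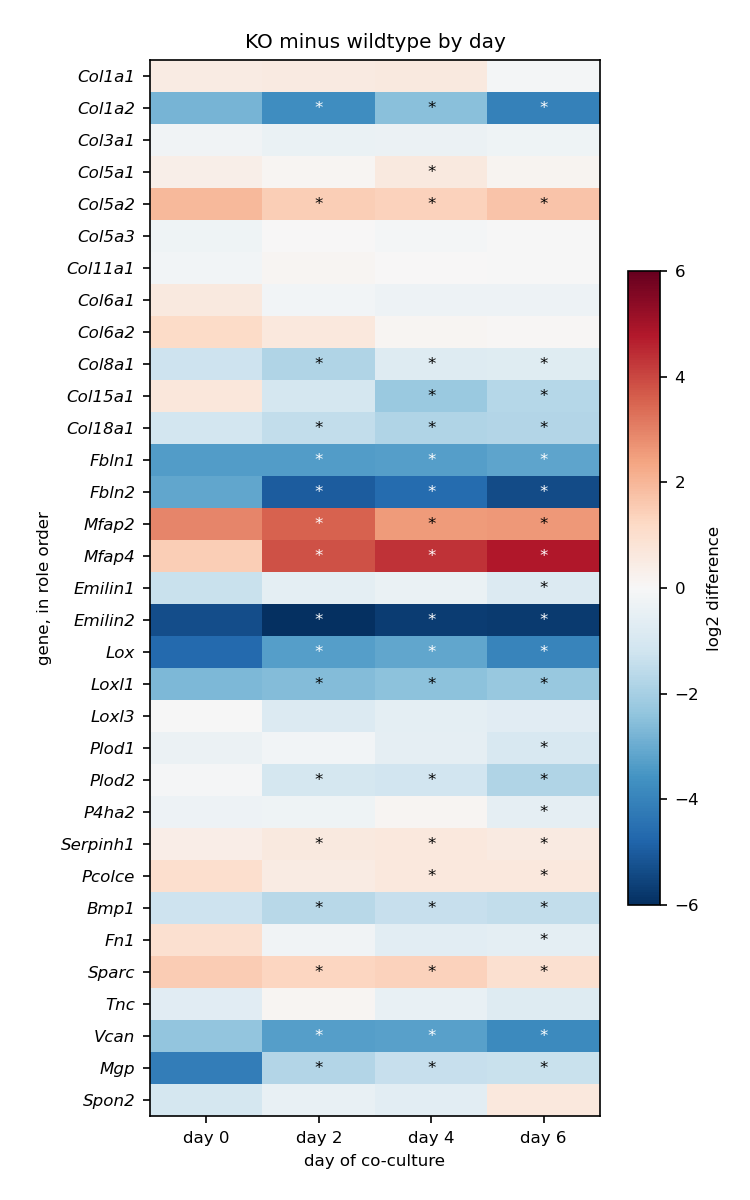
KO minus wildtype for the 33 tested genes at each day, as log2 differences from -6 (blue) to 6 (red). Stars mark an adjusted p under 0.05, and day 0, with 1 array per genotype, has no test. Most genes keep one colour over the 4 days. Among the genes called over the mean of days, Col15a1 and Fn1 turn from positive at day 0 to negative later. Col6a1, which was not called, does so too. Col15a1 was undetected on both day 0 arrays.

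From day 0 to day 2, the first interval with keratinocytes, 17 of the 33 genes rose when both genotypes were averaged and none fell, against 5.57% and 4.02% of all features, with a median change of 0.73 against 0.01. All 17 had a plus sign in each genotype, where the change was not tested. The fit takes the spread of the lone day 0 arrays from the other groups, and co-culture cannot be told apart from time in culture, as every later array came from cells with keratinocytes. With median scaling 4 of the 17 passed (Mgp, Col18a1, Loxl1 and Col6a2), with 1.13% of all features higher and 0.265% lower.

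Mgp changed most, by 4.00 ± 0.26 (adjusted p = 1.61e-08). It went from 11.72 to 14.55 and 14.48 in wildtype and from 7.58 to 12.79 and 12.75 in KO, which is 2.80 and 5.19. Col18a1 rose by 2.12 ± 0.31 and Loxl1 by 1.87 ± 0.25 (adjusted p = 3.01e-04 and 1.33e-04). By genotype the changes of Col18a1 were 2.31 in wildtype and 1.93 in KO, and those of Loxl1 1.82 and 1.93.

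Of the type VI chains, Col6a2 rose by 1.86 ± 0.28 and Col6a1 by 1.16 ± 0.22 (adjusted p = 3.29e-04 and 0.0027). Col3a1 rose by 1.81 ± 0.35 (adjusted p = 0.00299), from 6.87 and 6.67 at day 0 to 8.29 or more on the day 2 arrays. Of the 6 procollagen modification and processing genes 5 rose, by 0.53 (Serpinh1) to 0.94 (P4ha2), and Bmp1 did not pass at 0.54 ± 0.23 (adjusted p = 0.15). Lox, Sparc, Col5a2, Col8a1, Mfap4 and Fbln1 rose by 0.80 to 1.25. The calls of Lox, Plod1 and Plod2 were lost when any 1 of the 4 day 2 arrays was left out, and that of Mfap4 (change 0.07 in wildtype, near background, and 2.43 in KO, not tested apart) without wildtype replicate 1 or either KO replicate.

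Vcan, Fbln2 and Fn1 did not pass. Vcan changed by -0.54 ± 0.30, Fbln2 by -0.46 ± 0.33 and Fn1 by 0.19 ± 0.25 (adjusted p = 0.297, 0.456 and 0.719). By genotype, not tested, Fbln2 changed by 0.46 in wildtype and -1.38 in KO, and Fn1 by 0.78 and -0.39. Those of Vcan were -0.06 in wildtype and -1.02 in KO. Emilin2 and Col1a2 were detected on no KO array of days 0 and 2, so only their wildtype changes are given, 0.47 and 0.68, without a test.

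**Figure D4:**
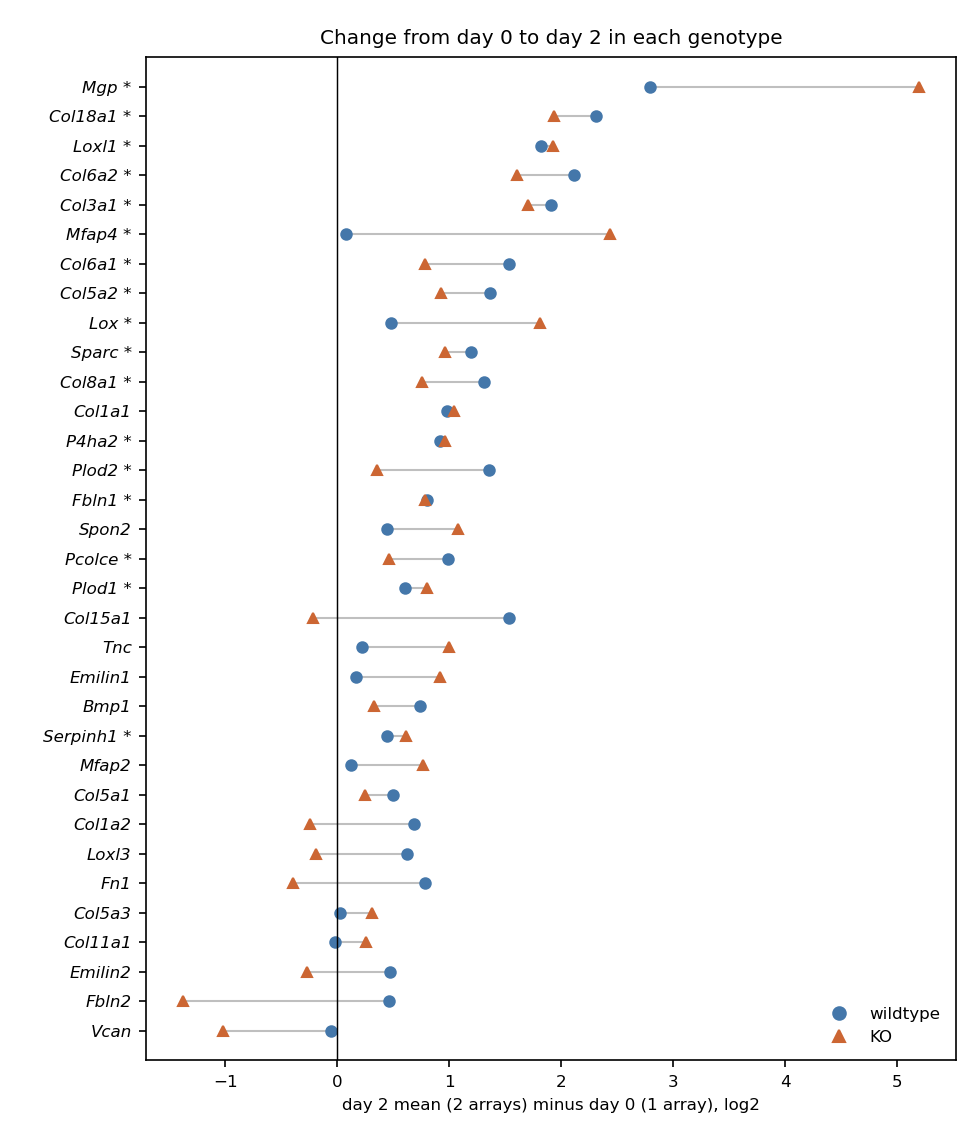
Change from day 0 (1 array) to the mean of day 2 (2 arrays) on the log2 scale, for each tested gene in wildtype (circles) and KO (triangles), joined by a line. Stars mark genes called in the mean of both genotypes. Mgp stands apart at 2.80 and 5.19, and 25 of the 33 genes lie right of 0 in both genotypes.

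Between days 2 and 6 little could be told. Col1a1, Col11a1 and Fbln2 passed as higher at day 6 in the mean of both genotypes, by 1.17 ± 0.25, 0.88 ± 0.24 and 0.92 ± 0.23, and none as lower (1.88% and 1.65% of all features). No gene passed with the processing set as a block, 1 passed without KO day 6 replicate 4, and none without any 1 of the other arrays of days 2 and 6 except the first-set arrays of day 6. Without wildtype day 6 replicate 1, 15 genes passed as higher, and over all features 10.3% were higher and 8.88% lower. Without KO day 6 replicate 1, 13 passed as higher, and over all features 11.3% were higher and 10.5% lower, so the number of calls rose over the whole array. The interaction, which asks whether the genotype difference changed from day 2 to day 6, called no feature in either direction (0% of all; limma; 715 features and 4 of the 33 genes at an unadjusted p under 0.05: Col8a1, Plod1, Mfap2 and Plod2). The lowest adjusted p of the 33 genes was 0.991.

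Further genes of these pathways were counted from lists of related genes. Of 12 tested other collagen chains, 3 were lower over the mean of days and none higher (18% and 20% of all features, as above): Col17a1 (at least 3.51-fold), the hemidesmosome collagen of keratinocytes, Col2a1 (at least 3.55-fold), the cartilage fibril collagen, and Col7a1 (-0.78 ± 0.15), the anchoring fibril collagen. On days 2 to 6, Col17a1 was detected on 0 KO and 8 wildtype arrays, and Col2a1 on 1 and 8. On these days both reached the 2 detected arrays that the filter needs in wildtype only. Of 14 other folding, modification and processing genes, 5 were higher and 7 lower, beside the same 20% and 18% of all features. Ppib, cyclophilin B, which helps procollagen fold, was higher by 3.61 ± 0.21 (adjusted p = 3.79e-11), and Pcolce2 was higher by 2.19 ± 0.18. Loxl4, a further lysyl oxidase, was at least 8.22-fold lower (adjusted p = 2.86e-11).

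Of 17 other elastic fibre and matricellular genes, 5 were higher and 8 lower, beside the same shares. The thrombospondins moved apart, with differences of -2.82 ± 0.12 for Thbs2 and 2.63 ± 0.34 for Thbs1, and Ecm1 gave -2.08 ± 0.22. The medians of these 3 lists were -0.08, -0.10 and -0.29, against 0.03 over all features.

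Markers were read as summed normalised intensity per array. The 10 fibroblast markers gave 16934 to 33188 in wildtype and 11534 to 29680 in KO, and 6 were lower and 3 higher in KO (18% and 20% of all features). The 5 of 7 smooth muscle markers tested gave 1768 to 4957 in wildtype and 17593 to 28381 in KO. Among these Acta2 differed by 3.15 ± 0.16 and Des by -0.73 ± 0.23, the list's median was -0.05, and Myh11 and Cnn1 did not pass the filter. The 6 of 14 keratinocyte markers tested gave 604 to 903 and 453 to 870, and 3 were higher and 1 lower in KO. Ivl (involucrin) was at least 6.85-fold lower (adjusted p = 2.29e-10). On days 2 to 6 it was detected on 1 KO and 8 wildtype arrays, so it reached the filter's 2 arrays in wildtype only. Among the markers higher in KO were Trp63 (0.75 ± 0.24) and Krt14 (0.52 ± 0.16; adjusted p = 0.0194 and 0.0149). Krt14 was detected on 2 KO arrays and no wildtype array of days 2 to 6. For macrophages 3 of 6 gave 490 to 1761 and 281 to 478, with Ptprc, Cd68 and Lyz2 not past the filter. Of these 3 only Cd14 passed the test, with -1.45 ± 0.16 and means of 9.85 in wildtype and 8.39 in KO. The median of the macrophage list was 0.04. For endothelium 3 of 6 gave 24.4 to 70.0 and 13.5 to 43.5, with Pecam1 not past the filter. The 6 of 10 chondrocyte and osteoblast markers gave 2663 to 4923 and 1725 to 3576, and 3 of 6 adipocyte markers 31.5 to 150.6 and 13.3 to 40.0. The part of these markers in the differences between the genotypes was not tested.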

How the data were processed

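Per the file headers, the authors deposited for each of 45121 probes and 18 arrays a bead intensity, not normalized, and a detection p-value. They also deposited log2 values, which by comparison lay within 0.005 of the log2 of quantile-normalized intensities. How the arrays were scanned is not given in the sources used here. On the 6 arrays of the second set the deposited p-values were 2-sided in form and were converted to 1-sided ones.

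Background correction and quantile normalization used neqc of limma 3.58.1 (R 4.3.3; offset 16). The filter kept 26407 probes, those with a detection p under 0.01 on 2 or more arrays. A symbol was known for 34763 probes, 18 had several and 10340 none. Each gene was read by its kept probe of highest mean signal, which gave 18128 features (13106 genes). The model, fitted to all 18 arrays, had a mean for each group (lmFit, eBayes with trend), with 2-sided tests and Benjamini-Hochberg adjustment over all features in each comparison. Where no array of a group detected a gene, also where that group is 1 of those averaged, the fold is a lower bound, with that group's values raised to the lowest detected signal of each array. Precision is limited by the number of arrays and by how far a signal exceeds background, since arrays have no counting depth.

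The genes, lists and motifs were chosen with earlier results of these data known. The rule for named genes let any of the 44 be named, with values per array for up to 4 called genes per role group, those with the largest difference over the mean of days. Col1a1 was added as the partner chain of Col1a2, after its values were seen. Of the further lists the 3 largest called differences were named. Promoter sequences are RefSeq's, and none of chromosome 18 was used.

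Same-numbered replicates were checked for pairing. The deviations correlated at -0.0096 (day 2) and -0.116 (day 4), and at day 6 at 0.109 to 0.569 over all arrays but -0.0431 to 0.151 within the second set, so the numbers were not taken as pairs. Alternatives changed the scaling, the filter, the probe rule, the trend, the processing set, the replicate block and the arrays left out.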

Additional observations from a re-analysis of the deposited data

Results flagged for a closer look

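At day 6, the one day with 4 arrays per group, 6 of 66 groups of 4 arrays (33 genes in each genotype) held 1 array set apart from the other 3, by a gap that, as a share of the group's whole range, exceeded Dixon's 95% critical value. Chance alone sets an array apart in about 1 in 20 such groups. Wildtype replicate 1 was the array set apart for Col1a1 (11.09 against 12.51 to 12.58), Col11a1 (4.18 against 5.45 to 5.68), Emilin1 (9.39 against 10.32 to 10.49) and Mfap4 (4.79 against 4.22 to 4.31, all undetected). It is the one array of its group that belongs to the first processing set. KO replicate 4, an array of the second set, was lowest for Mfap2 (6.41 against 7.28 to 7.46) and Bmp1 (9.35 against 10.23 to 10.40). Mfap2 and Bmp1 passed at day 6 in KO against wildtype with and without that array.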

How the results depend on the processing

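Counts of called genes were recomputed under up to 25 alternatives. Over the mean of days they ranged from 22 to 27 (24 as reported), at day 6 from 20 to 24 (23), and at day 2 from 14 to 20 (17). Over all features, higher calls ranged from 9.56% to 23.5% (mean), 7.56% to 17.7% (day 6) and 2.92% to 14.8% (day 2). Lower calls ranged from 10.6% to 21%, 7.59% to 16.3% and 5.74% to 13.8%. At day 4 median scaling gave 13 of 20, with 3.17% of all features higher and 5.19% lower. The other alternatives gave 16 to 22, with 5.6% to 14.4% of all features higher and 5.36% to 13.1% lower. From day 0 to day 2 median scaling gave 4 of 17, with 1.13% of all features higher and 0.265% lower. The others gave 13 to 21, with 3.01% to 10.7% of all features higher and 1.96% to 9.79% lower. From day 2 to day 6 the count of 3 became 0 with the processing set as a block, on the first set alone, with the replicate block, without the filter and without the trend, 17 under median scaling, which shifted the median of all features by 0.35, and 0 to 15 with 1 array left out. Under median scaling 15.1% of all features were higher at day 6 than at day 2 and 1.24% lower. The cause of these changes in count was not tested. Leaving out 1 array of day 6 gave 22 to 24 called genes at day 6, with 13% to 14.7% of all features higher and 12.1% to 13.9% lower. It gave 0 in the interaction, as over all features. Median scaling also moved the share of higher calls over all features from 51.4% to 38% (day 4), 49.9% to 30.8% (day 2), 58.1% to 81% (day 2 against day 0) and 53.1% to 92.4% (day 6 against day 2). No called gene changed its direction.

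Calls lost under some alternative were Col15a1, Emilin1, P4ha2, Pcolce and Fn1 at day 6, Col5a1, Col5a2, Col8a1, Col15a1, Plod2, Serpinh1 and Pcolce at day 4, and Col5a2, Col18a1, Plod2 and Serpinh1 at day 2. With the replicate number as a block 24 genes were called at day 6, 20 at day 4, 17 at day 2, 24 over the mean of days, 14 from day 0 to day 2, and none in the interaction. Over all features, 16.5% were then higher and 15.2% lower at day 6, 11.8% and 10.7% at day 4, and 12% and 11.5% at day 2. These shares were 21.9% and 19.3% over the mean of days, and 5.8% and 3.72% from day 0 to day 2. A crossed pairing at day 4, chosen after seeing the data, gave 22, with 12.9% of all features higher and 11.7% lower. Dim genes such as Loxl3, Col11a1 and Col5a3 are limited by background.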
